A study of Mus musculus with 6 samples.

Results

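Conventional CD4 T cells that carried no RNA of Eomes or Gzmk were examined in single-cell RNA sequencing of mouse ovarian tumors. Cells were chosen on their measured UMIs, the molecular barcodes by which 1 captured RNA molecule is counted once. A member had at least 3 UMIs of the T cell receptor complex (Cd3d, Cd3e, Cd3g, Trac, Trbc1 and Trbc2 together), at least 1 UMI of Cd4, no UMI of Cd8a, Cd8b1, Foxp3 or the B cell gene Cd79a, at most 5 UMIs of the macrophage genes Lyz2, C1qa, C1qb and C1qc together, and no UMI of Eomes or Gzmk. The rule found 1692 cells among 14152 gated T cells and 51633 cells that passed the filters on quality, out of 57078 deposited barcodes. Since these genes set the membership, their levels are given as a description and were not tested.

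CD4 T helper cells recognise peptides on class II molecules and act on other cells through secreted cytokines and through ligands on their surface, many of them of the tumor necrosis factor (TNF) family. CD40 ligand, encoded by Cd40lg, is the classical helper signal to B cells and dendritic cells. Helper cells are commonly sorted by their master regulators and cytokines into T helper 1 (Tbx21, Ifng), T helper 2 (Gata3, Il13), T helper 17 (Il17a) and follicular helper cells (Bcl6, Il21), while Foxp3 marks regulatory T cells. Eomes and Gzmk mark CD4 cells with cytotoxic features.

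The study asked whether inhibitors of glycan synthesis change the immune cells of ovarian tumors given antibody against the checkpoint ligand PD-L1. KPCA cells, a mouse ovarian cancer line proficient in homologous recombination, were placed in the ovarian bursa of young adult female C57BL/6 mice, and the digested tumors were run on the 10x droplet platform, 1 mouse for each of 6 treatments. The control mouse received solvent and rat IgG. The other mice received 2-deoxy-D-glucose (2DG, a glucose and mannose analog that blocks branched N-glycans), 2F-peracetyl-fucose (2FF, an inhibitor of fucosylation), anti-PD-L1, or the antibody together with 1 of the inhibitors, called below the 2DG combination and the 2FF combination. 2DG and the antibody were injected intraperitoneally, 2FF was given by gavage, and in the 2FF groups the tumor cells had also been kept in 2FF before injection. A single transplanted line and 1 mouse per group limit the model. The tissue given in the sample labels is lymph node, and young and aged mice are mentioned in the series text, whereas the methods describe tumors. Only the treatments were used here to map samples.

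Wherever 6 values are given, they stand for control, then 2DG, 2FF, anti-PD-L1, the 2DG combination and the 2FF combination. The libraries held 73885214, 61859753, 72009925, 62823127, 65369018 and 68394410 UMIs in all. Conventional CD4 T cells without Eomes and Gzmk numbered 71, 292, 379, 321, 361 and 268, with 487546, 1917991, 2281966, 1910353, 2127535 and 2055404 UMIs summed over them. The control library therefore gave by far the fewest cells and the least precise levels. Median UMIs per member cell were 5906, 5422, 5199, 5311, 5259 and 6782.5, so cells of the 2FF combination were read most deeply.

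The control library stood apart from the rest before any gene was compared. It held only 460 gated T cells against 2026 to 3073 elsewhere, and 1961 of its cells that passed the filters (21.6%) were neutrophils by their markers against 1.08% to 2.02% in the other libraries. Each of the 15 pairs of libraries shared 16 to 34 cell barcodes, 393 shared barcodes over all pairs. Of the member cells 34 carried a barcode that also occurred in another library, and 1 shared barcode belonged to members in both. Cells that resembled simulated doublets were kept and made up 5, 20, 18, 14, 13 and 11 of the members.

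Among gated T cells the members made up 15.4% (95% Clopper-Pearson interval 12.3 to 19.1), 10.2% (9.09 to 11.3), 12.3% (11.2 to 13.6), 11.5% (10.3 to 12.7), 12.4% (11.2 to 13.6) and 13.2% (11.8 to 14.8). The intervals of the control and the 2FF combination lay above that of 2DG, and every other pair of intervals overlapped. Within CD4 cells the spread was wider. Of 200, 904, 565, 600, 564 and 481 gated CD4 cells they were 35.5% (28.9 to 42.6), 32.3% (29.3 to 35.5), 67.1% (63.0 to 70.9), 53.5% (49.4 to 57.6), 64.0% (59.9 to 68.0) and 55.7% (51.2 to 60.2). The control and 2DG libraries thus had the lowest shares, with intervals below those of the other 4. In those 2 libraries CD4 cells with Eomes or Gzmk were 15.4% and 11.7% of T cells against 2.77% to 3.97% in the other 4, and Foxp3 cells were 12.6% and 9.65% against 2.86% to 6.71%. Intervals of shares and of summed UMIs cover counting error only, and with 1 mouse per treatment no difference between treatments has a replicate check, so no p-value is given for any of them.

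**Figure D1:**
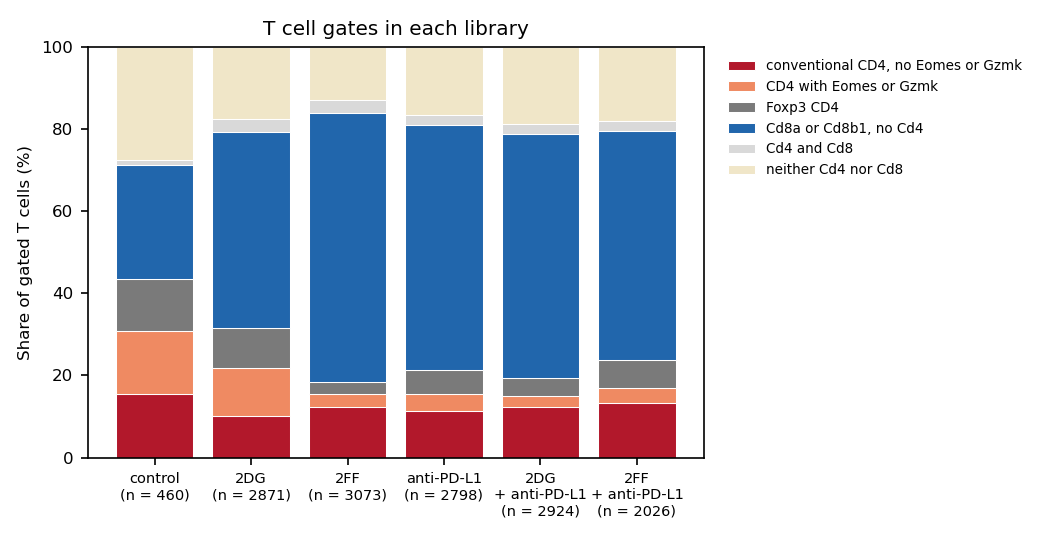
Stacked bars give, for each library, the share of gated T cells (percent) in 6 gates, with the number of T cells under each bar. The red bars, conventional CD4 T cells without Eomes and Gzmk, stay between 10.2% and 15.4%, while CD4 cells with Eomes or Gzmk take 15.4% and 11.7% in the control and 2DG libraries and at most 3.97% in the others.

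The gate has soft edges. Of the members 529 had exactly 1 Cd4 UMI (median 4539 UMIs per cell), and 1373 cells that met every other rule had none (median 4654). A total of 40 members had exactly 3 T cell receptor complex UMIs and 31 cells fell out with 2. With no UMI of Eomes or Gzmk the 1692 members had a median of 5499.5 UMIs, and the 231 cells with exactly 1 had 5823. A further 381 members had 1 to 5 UMIs of the macrophage genes.

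The label of these cells was checked against its markers in every library. Summed levels are given as CPM, a gene's UMIs over all UMIs of the gate on a scale of 1000000. For such a sum over cells, fewer expressing cells and less RNA per cell cannot be told apart. Cd4 stood at 433, 444, 454, 503, 512 and 461 CPM. Cd40lg, the CD40 ligand gene at chrX:57212143-57224042 (plus strand, GRCm38), was measured at 51.3, 42.8, 88.1, 69.1, 82.7 and 56.9 CPM. Its levels in the control and 2DG libraries were low beside 2FF and the 2DG combination, and the control value rested on 25 UMIs. CD4 cells with Eomes or Gzmk had 6.65, 12.9, 23.0, 30.6, 27.4 and 21.0 CPM of Cd40lg, all below every member value. Foxp3 cells had at most 11.3 CPM and CD8 cells without Eomes and Gzmk at most 2.60 CPM.

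Tnfsf8, which encodes the CD30 ligand and lies at chr4:63831308-63861347 (minus strand), was the most abundant of the 3 ligand markers. Member levels were 400.0, 615, 576, 734, 536 and 645 CPM. CD4 cells with Eomes or Gzmk had 6.65, 59.5, 54.6, 102, 127 and 119 CPM, and Foxp3 and CD8 cells at most 64.5 and 52.3 CPM, so no library of another gate overlapped the members. Tnfsf11, the gene of RANKL at chr14:78277445-78308043 (minus strand), which acts on dendritic cells and osteoclasts, stood at 205, 217, 211, 254, 357 and 231 CPM. It was highest in the 2DG combination, and the other 5 libraries lay close together. In CD4 cells with Eomes or Gzmk it was 18.3, 40.3, 87.6, 49.7, 151 and 122 CPM.

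**Figure D2:**
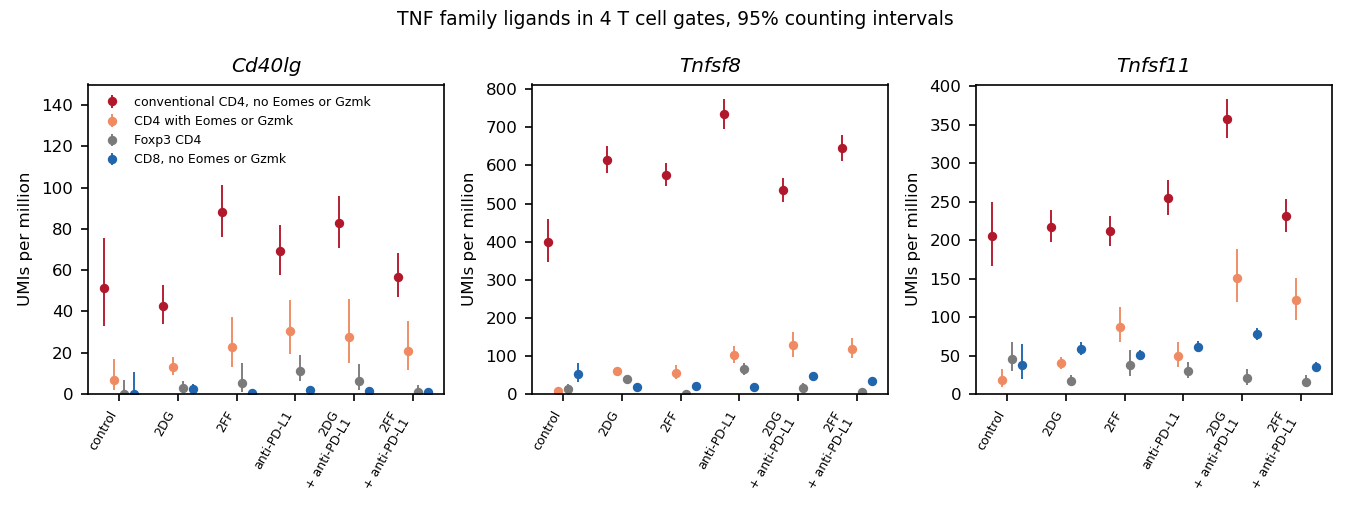
Points are CPM of Cd40lg, Tnfsf8 and Tnfsf11 in 4 T cell gates of the 6 libraries, with 95% counting intervals. Within each library the red points of the conventional CD4 T cells lie above the other gates for all 3 genes.

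Because these 3 genes came with the definition of the cells, their differences from other gates are listed without p-values and are not used as support. The fits of the gate comparisons below did include them, and they are among the genes counted as higher there. Against CD4 cells with Eomes or Gzmk the log2 fold change was 1.69 ± 0.17 (SE, n = 6 libraries) for Cd40lg, 3.04 ± 0.338 for Tnfsf8 and 1.81 ± 0.315 for Tnfsf11. Against Foxp3 cells it was 3.77 ± 0.281, 4.61 ± 0.488 and 3.30 ± 0.227, and against CD8 cells 5.58 ± 0.289, 4.43 ± 0.314 and 2.15 ± 0.094. Only a part of the members had a UMI of each ligand. A UMI of Cd40lg was found in 26.4% of member cells, 8.93% of CD4 cells with Eomes or Gzmk and none of 1138 B cells, which allows a share of up to 0.264%. Tnfsf8 was seen in 38.1% of members and 0.527% of B cells, and Tnfsf11 in 35.8% and 0.352%. Median depths were 5499.5 UMIs in members and 5266 in B cells, a cell type taken here to lack these RNAs. With every cell thinned to 2000 UMIs the shares by library were 8.54%, 8.14%, 15.6%, 11.7%, 14.4% and 10.4% for Cd40lg, against 19.7%, 18.2%, 31.1%, 25.2%, 29.9% and 26.9% unthinned. The thinned shares ran from 23.8% to 31.9% for Tnfsf8 and from 18.3% to 26.4% for Tnfsf11.

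Other cells could enter such a gate, so their markers were summed. The 8 neutrophil genes reached 2465 CPM in the control members and 361, 537, 454, 533 and 522 CPM in the others. In the control this was led by S100a8 and S100a9, granule genes of neutrophils, at 816 and 1097 CPM against 3.89 to 38.1 and 4.87 to 46.4 CPM elsewhere. The CD8 gate of the control library held a similar S100a8 level (854 CPM), and 5 of the 71 control members carried more than 5 UMIs of these genes together. Over the median of libraries Il1r2, a decoy receptor gene that T cells also transcribe, was the most abundant gene of that list at 401 CPM. The 8 macrophage genes outside the gate (led by Ctss) summed to 599, 363, 463, 247, 263 and 265 CPM and the dendritic cell genes (led by Cd74, with Siglech at 0) to 2086, 1098, 1728, 773, 680 and 674 CPM. All 3 sums were highest in the control library. Markers of B cells summed to at most 65.2 CPM and of gamma-delta T cells to at most 27.1 CPM. Tumor epithelial genes reached at most 7.45 CPM, with the defining Wfdc2, Msln and Cldn4 at 0. Regulatory T cell markers summed to 2970 to 3708 CPM against a median of 9893 CPM in Foxp3 cells.

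Members were then compared with 3 other T cell gates, the 6 mice serving as replicates and the library kept as a block (edgeR quasi-likelihood test on summed UMIs, Benjamini-Hochberg adjustment, threshold 0.05, genes of the gates left out). Against CD4 cells with Eomes or Gzmk 683 of 10283 genes tested were higher in members (6.64%) and 371 lower (3.61%). Against Foxp3 cells 1187 of 10635 were higher (11.2%) and 1195 lower (11.2%). Against CD8 cells without Eomes and Gzmk 1546 of 11146 were higher (13.9%) and 1302 lower (11.7%). Counts of called genes in the lists below are to be read beside these shares. The median log2 fold change over all genes tested was -0.00, 0.01 and -0.01. Without the control library the genes called were 940, 2490 and 3044 in place of 1054, 2382 and 2848. Without the 2DG library 535 genes were called against CD4 cells with Eomes or Gzmk. Over all libraries together member cells were shallower than those of the other gates, whose median UMIs were 6681, 6297 and 5887 per cell. In the control library CD8 cells were shallower than members (median 5721.5 against 5906 UMIs).

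Ligands of the TNF family were counted without the 3 that came with the label. Of the other 9 ligands 4 were higher than in CD4 cells with Eomes or Gzmk and none lower (median log2 fold change 1.08), 8 were higher and 1 lower than in Foxp3 cells (1.81), and 6 were higher and 2 lower than in CD8 cells (0.43). These 9 summed to 749, 957, 930, 934, 869 and 791 CPM in members, with a median of 900 CPM against 643, 799 and 784 CPM in the other gates. In 2DG and anti-PD-L1 Foxp3 cells held more than members (997 and 978 CPM), so the summed levels of these 9 overlapped between the gates.

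Lta, the gene of lymphotoxin alpha (chr17:35203165-35205351), was at 18.5, 34.4, 30.7, 31.4, 18.8 and 22.9 CPM. It was higher in members than in CD4 cells with Eomes or Gzmk by 1.79 ± 0.277 on the log2 scale (edgeR adjusted p = 0.0007222), and than in CD8 cells by 2.53 ± 0.182 (edgeR adjusted p = 3.044e-08), with every library in that direction. Ltb, its membrane partner, went both ways, with 0.44 ± 0.0843 against CD4 cells with Eomes or Gzmk (edgeR adjusted p = 0.003389) and -0.56 ± 0.0699 against Foxp3 cells (edgeR adjusted p = 1.105e-05). Tnf itself was higher than in Foxp3 cells (1.40 ± 0.204, edgeR adjusted p = 0.0001976) and did not pass the test against CD4 cells with Eomes or Gzmk (0.61, edgeR adjusted p = 0.256). Tnfsf4, the OX40 ligand, was higher than in Foxp3 cells by 3.49 ± 0.297 (edgeR adjusted p = 1.196e-06).

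Receptors of the same family split by gate. Of 9 receptors 5 were higher and 1 lower than in CD4 cells with Eomes or Gzmk, 5 higher and 2 lower than in CD8 cells, and 1 higher and 6 lower than in Foxp3 cells. Tnfrsf4 (OX40, a costimulatory receptor) stood at 213, 292, 332, 327, 305 and 276 CPM in members. Its mean of 291 CPM compared with 161 CPM in CD4 cells with Eomes or Gzmk (log2 fold change 0.93 ± 0.165, edgeR adjusted p = 0.008006), 692 CPM in Foxp3 cells (-1.22, edgeR adjusted p = 5.898e-10) and 22.1 CPM in CD8 cells (3.64 ± 0.072, edgeR adjusted p = 6.382e-15). Tnfrsf18 (GITR) had the same order, with log2 fold changes of 0.73 ± 0.119, -0.87 and 2.21 ± 0.0817. Cd27, whose ligand is CD70, was the exception and was lower in members than in each of the 3 gates, by 1.18, 1.09 and 1.12 on the log2 scale. The costimulatory receptors Icos and Cd28 were abundant in members, at 322 to 650 CPM and 578 to 713 CPM, and only Cd28 was higher than in CD4 cells with Eomes or Gzmk (0.29, against 0.06 for Icos with an edgeR adjusted p of 0.896).

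**Figure D3:**
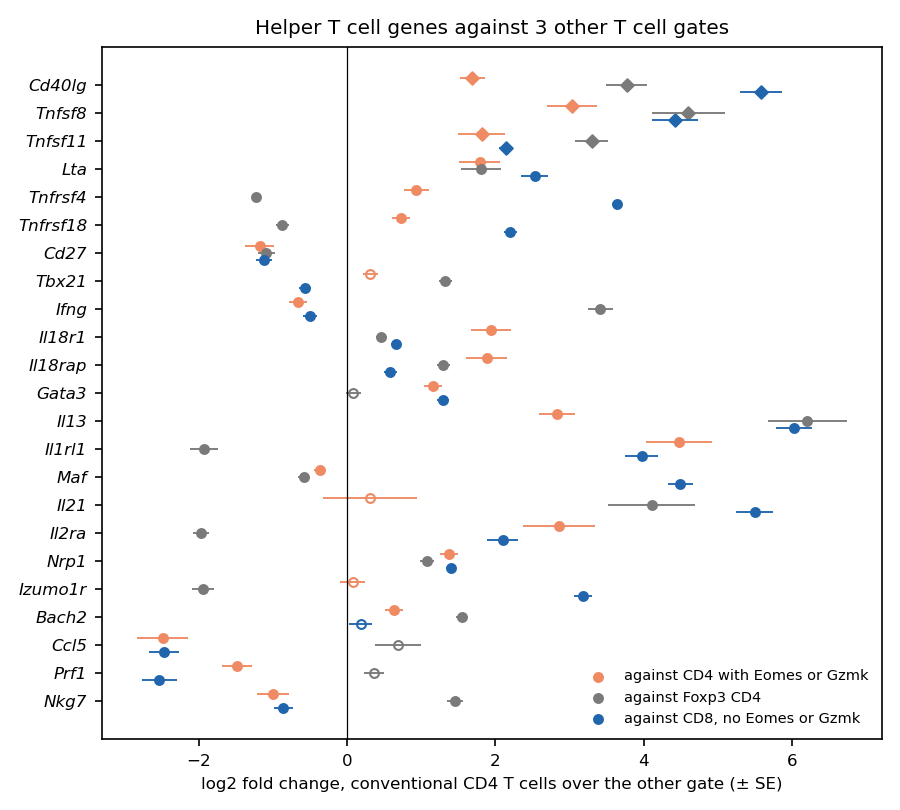
Log2 fold changes (± SE, 6 libraries as replicates) of 23 helper T cell genes in conventional CD4 T cells over 3 other T cell gates, 1 color per gate. Filled circles passed edgeR's adjusted p of 0.05 and open circles did not. Diamonds are the label's genes, whose test result is not shown because they came with the definition of the cells. Tnfrsf4, Il1rl1 and Il2ra lie right of 0 against CD8 cells and left of 0 against Foxp3 cells, while Cd27 lies left of 0 in all 3.

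Genes of T helper 1 cells were measured in all 6 libraries. Tbx21, which encodes the regulator T-bet, was at 135, 189, 213, 257, 206 and 247 CPM, and had a UMI in 51.2% of members against 3.87% of B cells. Control was the lowest library. It was higher than in Foxp3 cells (1.33 ± 0.0842, edgeR adjusted p = 5.144e-09), lower than in CD8 cells (-0.56 ± 0.0793, edgeR adjusted p = 8.213e-05) and did not pass the test against CD4 cells with Eomes or Gzmk (0.32, edgeR adjusted p = 0.066). Il18r1 and Il18rap, the receptor chains for interleukin-18, were higher in members than in every other gate, by 1.94 ± 0.268, 0.46 ± 0.0701 and 0.65 ± 0.0641 for Il18r1. Bhlhe40, a transcription factor of cytokine-producing helper cells, was the most abundant gene of the list and was higher in members than in each gate, by 0.49 ± 0.0677, 0.74 ± 0.068 and 0.55 ± 0.0491. In the list of 11 genes, 4, 8 and 5 were higher and 2, 3 and 4 lower against the 3 gates in turn. Over all genes tested 6.64%, 11.2% and 13.9% were higher and 3.61%, 11.2% and 11.7% lower.

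Ifng, the signature cytokine of T helper 1 cells, was measured at 125, 230, 472, 394, 443 and 466 CPM in members. The control and 2DG libraries were the low ones. Its mean of 355 CPM was below the 579 CPM of CD4 cells with Eomes or Gzmk (log2 fold change -0.66 ± 0.119, edgeR adjusted p = 0.004889, lower in 6 of 6 libraries) and above the 31.8 CPM of Foxp3 cells (3.42 ± 0.171, edgeR adjusted p = 2.249e-07). Against CD8 cells it was -0.50 ± 0.0954 (edgeR adjusted p = 0.002831).

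T helper 2 genes were present as well. The 10 genes of the list summed to 644, 655, 707, 611, 593 and 708 CPM in members, against medians of 530 CPM in CD4 cells with Eomes or Gzmk, 879 CPM in Foxp3 cells and 72.2 CPM in CD8 cells, and Maf, described with the follicular helper genes, held the largest part of it in members. Gata3 was at 172, 137, 113, 126, 102 and 134 CPM, with log2 fold changes of 1.16 ± 0.122 against CD4 cells with Eomes or Gzmk (edgeR adjusted p = 4.464e-05) and 1.29 ± 0.0867 against CD8 cells (edgeR adjusted p = 1.367e-08). Against Foxp3 cells, which also use GATA3, its 0.08 did not pass the test (edgeR adjusted p = 0.639). Il1rl1, the receptor for interleukin-33, was at 49.2, 27.6, 23.2, 27.7, 40.0 and 15.6 CPM, higher than in CD4 cells with Eomes or Gzmk (4.48 ± 0.448, edgeR adjusted p = 4.742e-05) and lower than in Foxp3 cells (-1.93 ± 0.191, edgeR adjusted p = 2.336e-05). Pparg, a nuclear receptor known in T helper 2 cells, had 4.63 ± 0.388 against CD4 cells with Eomes or Gzmk (edgeR adjusted p = 8.272e-06) and 0.07 against Foxp3 cells.

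Il13, at chr11:53631324-53634702 in the type 2 cytokine cluster, was carried by few cells. It was measured at 18.5, 43.8, 151, 50.3, 18.3 and 116 CPM, with 811 UMIs in 112 cells, and 10 cells held 71.0% of these UMIs. The 2FF library and the 2FF combination were high. A UMI was found in 5.63%, 8.22%, 6.07%, 6.85%, 5.26% and 7.46% of members, against 0.439% of B cells, and in 2.06%, 4.15%, 3.26%, 3.4%, 2.44% and 3.55% after thinning, so those 2 libraries were not the highest by share of cells. In the gate comparisons Il13 was higher in members by 2.83 ± 0.239 (edgeR adjusted p = 1.009e-05), 6.21 ± 0.529 (edgeR adjusted p = 2.626e-05) and 6.03 ± 0.244 (edgeR adjusted p = 4.205e-10). The neighbouring Il4 gave 16 UMIs in 13 cells and Il5 39 UMIs in 14 cells. Il3, Il9 and the T helper 2 receptor Ptgdr2 had no UMI in 1692 cells, which allows a share of up to 0.177% of cells with a UMI.

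Among follicular helper genes Maf and Il21 separated members from CD8 cells. Maf stood at 304, 374, 326, 333, 345 and 380.0 CPM, a mean of 344 CPM against 18.3 CPM in CD8 cells (4.50 ± 0.168, edgeR adjusted p = 1.551e-07), and was lower than in the other CD4 gates (-0.37 and -0.58). Il21, a cytokine that helps B and CD8 cells, was at 4.10, 40.2, 49.1, 30.4, 32.0 and 31.1 CPM, and only 2 UMIs lay behind the control value. Its mean of 31.1 CPM against 0.63 CPM in CD8 cells gave 5.5 ± 0.249 (edgeR adjusted p = 1.259e-10), and its 0.31 against CD4 cells with Eomes or Gzmk did not pass the test (edgeR adjusted p = 0.847). Of 12 genes 9 were higher and 1 lower than in CD8 cells and 7 higher and 2 lower than in Foxp3 cells, whereas of the 11 that passed the filter on low counts against CD4 cells with Eomes or Gzmk 1 was higher and 3 lower. T helper 17 cytokines were nearly absent, with 26 Il17a UMIs in 7 cells and 5 Il22 UMIs.

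Il2 and Csf2, growth factors made by activated helper cells, were seen in few members. Il2 gave 104 UMIs in 26 member cells, 84.6% of them in 10 cells, against 3 UMIs in CD4 cells with Eomes or Gzmk (log2 fold change 3.64 ± 0.654, edgeR adjusted p = 0.002178, counting interval 2.67 to 6.56). Csf2 gave 181 UMIs in 54 member cells and none in CD4 cells with Eomes or Gzmk, at least 33.4-fold higher when set against 3 UMIs over that group. Since 122 of these UMIs lay in the 2FF combination, 70 of them in 1 cell, the bound was 11.9-fold without that library, and it was 20.2-fold without 2DG. Il10 went the other way against Foxp3 cells, being lower by 1.46 on the log2 scale.

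Regulatory T cell markers other than Foxp3 summed to 3708, 3109, 3102, 3098, 2970 and 3126 CPM in members, against medians of 2204 CPM in CD4 cells with Eomes or Gzmk, 9893 CPM in Foxp3 cells and 1469 CPM in CD8 cells. Against Foxp3 cells 1 of 9 markers was higher and 8 were lower (median -1.70), among them Lrrc32 (the latent TGF-beta receptor GARP, 3.5 against 37.5 CPM, -3.22 ± 0.247, edgeR adjusted p = 4.219e-08) and Ikzf2 (Helios, 939 against 4564 CPM, -2.38 ± 0.275, edgeR adjusted p = 0.00246). Of the 8 that passed the filter on low counts against CD4 cells with Eomes or Gzmk, 4 were higher and none lower (median 0.47). Il2ra, the high-affinity chain of the interleukin-2 receptor, had a mean of 290 CPM in members and 1131 CPM in Foxp3 cells (-1.97 ± 0.113, edgeR adjusted p = 6.67e-07), and was 2.10 ± 0.21 above CD8 cells (edgeR adjusted p = 0.0006163). Its 2.87 above CD4 cells with Eomes or Gzmk passed (edgeR adjusted p = 0.0225) but did not without the 2DG library or that of either combination (2.78, 2.92 and 3.02, edgeR adjusted p = 0.0889, 0.0570 and 0.0559). The 1.21 of Ikzf2 above CD8 cells was lost without the control, 2DG, 2FF, anti-PD-L1 or 2FF combination library (1.16, 1.05, 1.22, 1.12 and 1.29, edgeR adjusted p = 0.0621, 0.0559, 0.0717, 0.0758 and 0.0536).

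Cytotoxic genes summed to less in members than in CD4 cells with Eomes or Gzmk or in CD8 cells. Their sums were 1415, 3160, 4983, 3930, 6057 and 4860 CPM, against medians of 11970 CPM in CD4 cells with Eomes or Gzmk, 11210 CPM in CD8 cells and 2191 CPM in Foxp3 cells, which only the control members were below. None of 12 was higher and 5 were lower than in CD4 cells with Eomes or Gzmk, and 1 of 13 was higher and 9 lower than in CD8 cells, while 5 of 12 were higher and 2 lower than in Foxp3 cells. Ccl5, a chemokine of effector T cells, was at 312, 1492, 1091, 1257, 1231 and 1357 CPM, a mean of 1123 CPM against 6137 CPM (-2.49 ± 0.342, edgeR adjusted p = 0.01133) and 6018 CPM (-2.47 ± 0.201, edgeR adjusted p = 0.0004555). Prf1 (perforin) was lower by 1.49 and 2.53, and Gzmb (granzyme B) lower than in CD8 cells by 3.32 ± 0.234 (61.7 against 603 CPM, edgeR adjusted p = 0.0001598). The -1.0 of Nkg7, a granule membrane gene, against CD4 cells with Eomes or Gzmk was lost without the 2DG library (-0.94, edgeR adjusted p = 0.107) and without 2FF, anti-PD-L1 or the 2DG combination (edgeR adjusted p = 0.0566, 0.0946 and 0.0802). The lower level of Ccl3 against those cells was lost without control, 2FF, anti-PD-L1 or the 2FF combination. Its values were then -1.23, -1.28, -1.24 and -1.42 (edgeR adjusted p = 0.125, 0.101, 0.128 and 0.0635). Of 11 inhibitory receptors none was higher and 3 were lower than in CD4 cells with Eomes or Gzmk, where Pdcd1 (PD-1) stood at -0.02 ± 0.143. Against Foxp3 cells 5 were higher and 3 lower, and against CD8 cells 5 higher and 4 lower. The lower level of Lag3 than in CD4 cells with Eomes or Gzmk was lost without control, 2DG, anti-PD-L1 or the 2DG combination. Its values were then -0.97, -0.93, -0.98 and -1.03 (edgeR adjusted p = 0.0786, 0.0633, 0.0892 and 0.078).

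Nrp1, a coreceptor for semaphorins, was at 326, 258, 402, 443, 469 and 316 CPM and was higher in members than in each of the 3 gates, by 1.37 ± 0.123, 1.07 ± 0.0927 and 1.41 ± 0.0666 (edgeR adjusted p = 4.464e-05, 2.439e-07 and 1.923e-10). Other lists are given against CD4 cells with Eomes or Gzmk, Foxp3 cells and CD8 cells in turn. Of all genes tested 6.64%, 11.2% and 13.9% were higher and 3.61%, 11.2% and 11.7% lower. Of 15 cell cycle genes none was higher in members and 4, 10 and 2 were lower. Of the 18 type I interferon response genes that passed the filter 5, none and 1 were higher and none, 9 and 3 lower. Of 15 genes of glycolysis 2, 1 and 10 were higher and none, 7 and 2 lower, the hexokinase Hk2 standing 1.08 ± 0.137 above CD8 cells (edgeR adjusted p = 0.0001072). Of the enzymes of branched N-glycans and fucose 1 of 14, 2 of 14 and none of 15 were higher, and none, 1 and 1 lower. These numbers lay near or under the shares over all genes. The gene above CD4 cells with Eomes or Gzmk was the branching enzyme Mgat5, at 0.82 ± 0.0862 above CD4 cells with Eomes or Gzmk (edgeR adjusted p = 4.464e-05), 0.37 ± 0.085 above Foxp3 cells (edgeR adjusted p = 0.003966) and -0.42 ± 0.0678 against CD8 cells (edgeR adjusted p = 0.0001946). Ccr7, a homing receptor of naive cells, had a UMI in 7.74% of members, against 54.0% of B cells, which also use it.

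The genes with the widest differences were mostly outside these lists. Hs6st3, a heparan sulfate sulfotransferase, had a mean of 84.5 CPM in members against 0.346 CPM in Foxp3 cells (7.54 ± 0.297, edgeR adjusted p = 6.622e-11, counting interval 6.30 to 11.2 on 2 UMIs in Foxp3 cells) and 0.178 CPM in CD8 cells (8.28 ± 0.207, edgeR adjusted p = 1.213e-13). Against CD4 cells with Eomes or Gzmk its log2 fold change was 2.72 ± 0.591 (edgeR adjusted p = 0.0432), and this call was lost without the control, 2DG, 2FF, anti-PD-L1 or 2DG combination library (2.52, 2.38, 2.58, 2.57 and 3.14, edgeR adjusted p = 0.0789, 0.107, 0.0982, 0.0892 and 0.0582). Dgki, a diacylglycerol kinase, and Lgals7, a galectin, exceeded CD8 cells by 6.57 and 5.53. The fibrillin gene Fbn2 had 88 UMIs in 29 members and none in Foxp3 cells, at least 17.5-fold higher, and at least 9.55-fold without the 2DG library. The interleukin-1 receptor Il1r1 and the endothelin receptor Ednrb were among the 10 genes furthest above CD4 cells with Eomes or Gzmk, by 4.52 ± 0.674 and 4.90 ± 0.735, on 2 UMIs each in those cells (counting intervals 2.96 to 7.91 and 2.59 to 7.56). On the low side were Esm1, a secreted proteoglycan gene, at 3.24 against 74.9 CPM in CD4 cells with Eomes or Gzmk (-4.61 ± 0.209, edgeR adjusted p = 8.155e-09), and Klrg1, a receptor of effector cells, at 25.1 against 232 CPM in Foxp3 cells. Gm44174 (chr6:71353035-71373284) and Gm44175 (chr6:71354351-71360829), noncoding genes annotated between Cd8b1 and Cd8a, and the neighbouring Smyd1 (chr6:71213940-71322233) were lower than in CD8 cells, with log2 fold changes of -7.33, -7.32 (3 UMIs in members, counting interval -9.79 to -5.96) and -4.87. Because the gate excluded RNA of Cd8a and Cd8b1 and reads of adjoining genes may be shared, these 3 are uncertain as separate differences.

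Treatments were set side by side within members as log2 ratios of CPM + 5, using genes whose UMIs in the compared pair of libraries came to 50 or more. A ratio understates the change of low genes, and a gene is counted here when it differed at least 2-fold. All 5 treated libraries share the same control library, and both combinations share the anti-PD-L1 library. Over control, 161 of 6330 genes were higher in 2DG (2.54%) and 131 lower (2.07%), 212 of 6730 higher in 2FF (3.15%) and 161 lower (2.39%), and 145 of 6281 higher in anti-PD-L1 (2.31%) and 169 lower (2.69%). In the 2DG combination 219 of 6397 were higher (3.42%) and 230 lower (3.6%), and in the 2FF combination 169 of 6345 were higher (2.66%) and 189 lower (2.98%). Over anti-PD-L1 alone the numbers were smaller. The members of that library held 1910353 UMIs against 487546 in control, so ratios over control carry more counting error. The numbers over the 2 libraries are therefore not alike in precision, and their difference is not a measure of how far the treatments differ. The combination with 2DG had 70 of 7625 higher (0.918%) and 60 lower (0.787%), and that with 2FF had 37 of 7588 higher (0.488%) and 32 lower (0.422%). Without cells resembling simulated doublets the higher genes outnumbered the lower ones over control in several libraries. These were anti-PD-L1 (153 and 124), the 2DG combination (240 and 201) and the 2FF combination (192 and 162). The balance of the 2 directions in these libraries thus turned with that choice, as it did with other settings given below. Leaving out the cells resembling doublets also left 46 genes (29 higher and 17 lower) for the 2FF combination over anti-PD-L1. Thinning all cells to 2000 UMIs left 54, 121, 93, 179 and 99 such genes over control and 52 and 10 over anti-PD-L1, of 2652 to 4384 genes that still had enough UMIs.

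Ifng was spread over many member cells. Its log2 ratio over control was 0.86 in 2DG (counting interval 0.49 to 1.29), 1.87 in 2FF (1.54 to 2.31), 1.62 in anti-PD-L1 (1.28 to 2.06), 1.78 in the 2DG combination (1.45 to 2.22) and 1.86 in the 2FF combination (1.52 to 2.30). Over anti-PD-L1 alone the combinations gave 0.17 and 0.24. A UMI of Ifng was present in 21.1%, 43.2%, 54.1%, 47.4%, 55.7% and 53.7% of members, and after thinning in 11.2%, 25.6%, 37.4%, 32.0%, 37.0% and 33.1%, against 1.93% of B cells. Control was lowest and 2DG next on each of these measures. CD4 cells with Eomes or Gzmk (213, 439, 1064, 466, 557 and 731 CPM) and CD8 cells (174, 454, 569, 512, 664 and 546 CPM) also had their lowest values in control.

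The chemokine genes Ccl3 and Ccl4, whose products attract leukocytes, differed between the libraries. Ccl4 was at 148, 285, 1265, 636, 1576 and 1079 CPM, with log2 ratios over control of 0.93, 3.06, 2.07, 3.37 and 2.83. Over anti-PD-L1 the ratio was 1.30 in the combination with 2DG and 0.76 in that with 2FF. Ccl3 was at 133, 121, 625, 329, 1011 and 617 CPM. Ccl4 RNA was also seen in 52.6% of macrophages, 51.7% of neutrophils and 8.96% of B cells. A UMI was found in 15.5%, 26.0%, 39.1%, 33.6%, 34.6% and 38.8% of members, and after thinning in 9.59%, 17.8%, 30.3%, 25.2%, 28.7% and 28.7%, so the 2DG combination, highest by level, was not highest by share of cells. Lag3, an inhibitory receptor, was at 82.0, 110, 239, 227, 253 and 200 CPM (log2 ratios 0.40, 1.49, 1.42, 1.57 and 1.24), with control and 2DG low.

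Lists are described between treatments by the summed level of all their genes, since a gene that is low in the small control library passed the minimum of UMIs only where the treated library was high. The 13 cytotoxic genes had their lowest sum in control, as given above (1415 CPM against 3160 to 6057 CPM), and Ccl3, Ccl4, Ccl5 and Nkg7 held much of it. The 15 helper cytokines summed to 361, 639, 965, 819, 809 and 984 CPM, led by Ifng. Not every cytokine was lowest in control. Il10, an inhibitory cytokine, was at 24.6, 13.0, 14.0, 16.2, 26.3 and 12.2 CPM, the control value resting on 12 UMIs in 3 cells, and Il17a had 7 UMIs in 2 control cells. Genes of glycolysis summed to 3374, 3054, 4351, 3656, 3501 and 3670 CPM, with 2DG lowest and 2FF highest. Enzymes of branched N-glycans and fucose summed to 1124, 1054, 1023, 1118, 1029 and 997 CPM, a narrow range.

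Other genes of helper cells went in several directions. Icos, a costimulatory receptor of activated helper cells, was at 322, 395, 523, 506, 650 and 569 CPM, with a log2 ratio over control of 1.0 in the 2DG combination (counting interval 0.77 to 1.26) and 0.29 to 0.81 in the others. Control was lowest and the 2DG combination highest. Cxcr6, a chemokine receptor of tissue T cells, was at 285, 209, 364, 302, 378 and 352 CPM, with 2DG lowest. T helper 1 genes, all of which passed the minimum, had 6, 8, 7, 8 and 8 of 11 above 0 over control and medians of 0.01, 0.26, 0.08, 0.52 and 0.38, where all genes had medians within 0.02 of 0. Of all genes 3131 of 6330, 3414 of 6730, 3226 of 6281, 3153 of 6397 and 3284 of 6345 were above 0. Inhibitory receptors summed to 3669, 3470, 4421, 4746, 5261 and 4716 CPM, with 2DG and control low. Genes of naive and circulating cells summed to 2695, 1933, 1851, 2287, 2354 and 1980 CPM, highest in control. The 12 follicular helper genes, Icos among them, had their lowest sum in control, at 921, 1014, 1208, 1178, 1372 and 1209 CPM. Bcl6, the regulator of follicular helper cells, went against its list and was highest in control, at 170, 99.1, 87.2, 86.4, 74.3 and 90.0 CPM.

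**Figure D4:**
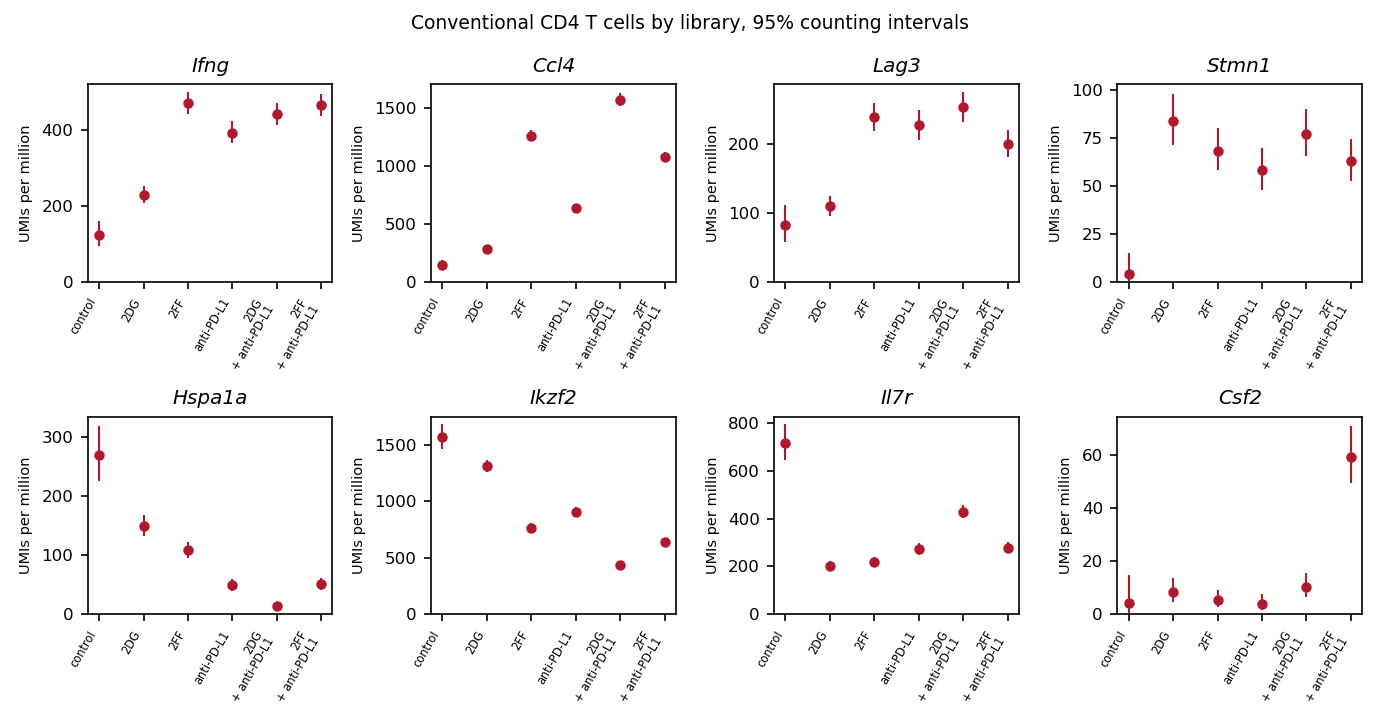
CPM of 8 genes in conventional CD4 T cells of the 6 libraries, points with 95% counting intervals. Ifng, Ccl4 and Lag3 are lowest in control and 2DG, Stmn1 is lowest in control, Hspa1a and Ikzf2 are highest in control and lowest in the 2DG combination, Il7r is highest in control, and Csf2 stands out in the 2FF combination.

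The 15 cell cycle genes had their lowest sum in the control members, at 644, 1431, 1260, 1117, 1308 and 1444 CPM. Stmn1, which regulates microtubules in dividing cells, was at 4.10, 83.9, 68.4, 58.1, 77.1 and 62.8 CPM, and the control value rested on 2 UMIs in 2 cells. Its log2 ratios were 3.29 (counting interval 2.48 to 7.41), 3.01 (2.18 to 7.12), 2.79 (1.94 to 6.89), 3.17 (2.36 to 7.29) and 2.90 (2.05 to 7.0). These intervals, like those of the other ratios, are for the counts without the added 5. Mki67, a proliferation marker, was at 45.1, 148, 102, 94.2, 103 and 126 CPM. Its share of members with a UMI had another order, with 23.9%, 22.6%, 13.7%, 13.1%, 14.7% and 26.5% against 7.29% of B cells, and after thinning 9.24%, 11.8%, 6.30%, 6.44%, 7.28% and 10.6% of members. Control was lowest by level and not by share of cells. In the control library other gates held more Stmn1, with 150, 168 and 98.7 CPM in CD4 cells with Eomes or Gzmk, Foxp3 cells and CD8 cells.

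Some genes were highest in control. The heat shock genes Hspa1a (269, 149, 108, 48.7, 13.2 and 50.6 CPM) and Hspa1b (345, 201, 131, 80.1, 15.0 and 101 CPM), which respond to protein stress and to tissue dissociation, were highest in control and lowest in the 2DG combination. The other 3 T gates had the same highest and lowest library for both. The list of 10 heat shock and dissociation genes did not follow them, with sums of 3797, 4023, 4600, 3679, 3478 and 4392 CPM, highest in 2FF. Il7r, the receptor for the survival cytokine interleukin-7, was at 716, 201, 219, 272, 429 and 277 CPM. Its log2 ratios over control were -1.80, -1.69, -1.38, -0.73 and -1.35, and Foxp3 and CD8 cells had the same highest library (802 and 270 CPM). CD4 cells with Eomes or Gzmk did not, with 28.3 CPM in control, 27.0 to 73.6 CPM in 4 libraries and 133 CPM in the 2DG combination. The sums of dendritic, macrophage and neutrophil genes in members were also highest in control, and the part of other cells' RNA in these ratios was not tested.

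Ikzf2 had another order. Its level was 1569, 1313, 767, 908, 432 and 642 CPM in members, with log2 ratios over control of -0.26, -1.03, -0.79, -1.85 and -1.28 and over anti-PD-L1 of -1.06 for the combination with 2DG and -0.50 for that with 2FF. CD4 cells with Eomes or Gzmk had 1501, 1014, 346, 902, 390 and 517 CPM, while Foxp3 cells stayed between 4231 and 4899 CPM. CD8 cells had 526, 329, 337, 291, 378 and 352 CPM, with control highest and the 2DG combination next. Helios is also a regulatory T cell protein, and Foxp3 RNA is easily missed in single cells. When members with a UMI of Il2ra, Lrrc32, Ikzf4 or Izumo1r were left out, a choice made after the data were seen, Ikzf2 stood at 594, 625, 371, 393, 242 and 284 CPM in 36, 110, 195, 144, 188 and 106 cells. Control and 2DG were still above the other libraries and the 2DG combination was lowest, but 2DG now stood above control. The part of missed regulatory T cells in the order of Ikzf2 was not tested.

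**Figure D5:**
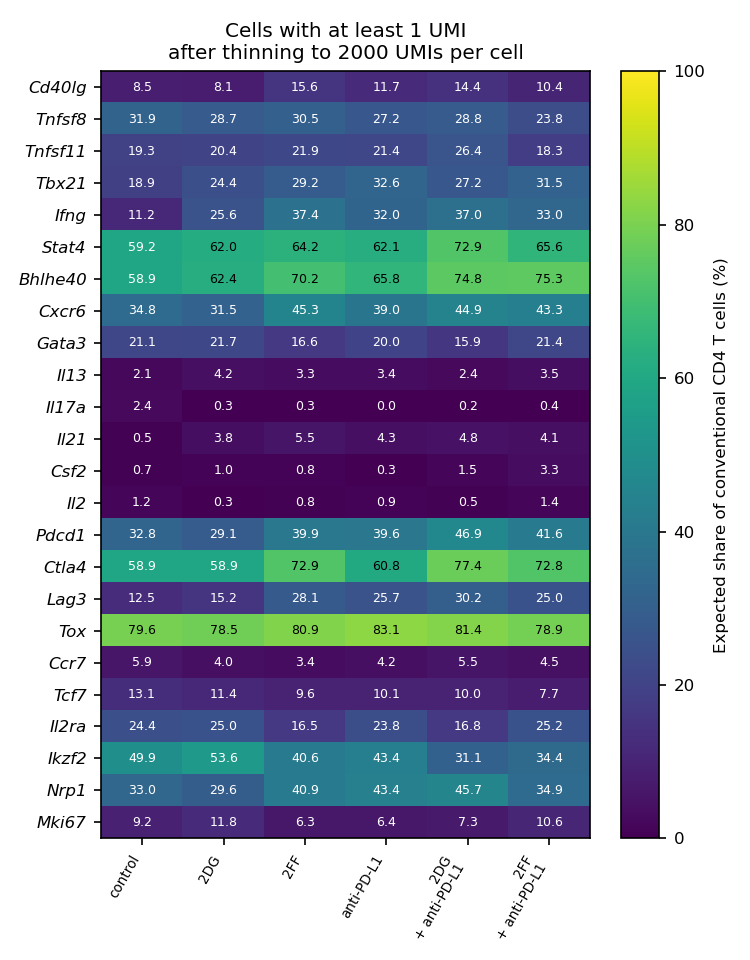
Expected share (percent) of conventional CD4 T cells with at least 1 UMI of 24 genes after thinning to 2000 UMIs per cell, genes in rows and libraries in columns. Ifng runs from 11.2% in control to 37.4% in 2FF, and Il17a is near 0 in most libraries.

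Of the 130 and 69 genes that differed 2-fold between the combinations and anti-PD-L1, 116 and 52 were still counted when a UMI in at least 20 cells was required. Among the 5 highest and 5 lowest ratios with 2DG were the histone gene Hist1h2ap (348 UMIs in 51 cells against 65 in 21, log2 ratio 2.11), the noncoding Gm26532 (153 UMIs in 79 cells against 26 in 23, 2.05) and the peptide transporter Slc15a2 (3 UMIs against 74 in 38 cells, -2.77 with a counting interval of -7.09 to -3.18). With 2FF they included Sdhd, a subunit of succinate dehydrogenase (59 UMIs in 47 cells against 10 in 10, 1.72), and Csf2. Csf2, the gene of GM-CSF at chr11:54247271-54249667, was at 4.10, 8.34, 5.26, 3.66, 10.3 and 59.4 CPM, and its 2.89 over anti-PD-L1 came from 122 UMIs in 22 cells, 70 of them in 1 cell. Cell cycle genes summed to 1308 and 1444 CPM in the combinations against 1117 CPM in anti-PD-L1. T helper 1 genes had 8 of 11 above 0 in the 2DG and in the 2FF combination (medians 0.39 and 0.24), against 3412 of 7625 and 3633 of 7588 over all genes (-0.04 and -0.01). Heat shock genes had 3 and 9 of 10 above 0, with 2 at least 2-fold lower in the 2DG combination and none in the 2FF combination.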

How the data were processed

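Per the file headers and methods, the authors made raw UMI counts per gene and cell with Cell Ranger (7.0.0 in the headers and 3.1.0 in the labels) on mm10, and deposited these counts unnormalized for 32285 genes. Their filters (at least 250 genes, at most 5% mitochondrial UMIs) were applied here. Symbols shared by several entries were summed, which left 32245. Members and the 30 gene lists were chosen with earlier results of these data known. Doublets (0.8% per 1000 cells of a library, scored on 30 neighbours) were marked and kept. Counts were summed per library and gate and tested with edgeR 4.0.16 (quasi-likelihood, TMM, filterByExpr, library as block) in R 4.3.3. On simulated data the share of false calls exceeded the threshold of 0.05 against CD4 cells with Eomes or Gzmk and lay under it against the other gates. DESeq2 1.42.0 was an alternative. Each mouse gave cells to every gate, so p-values measure the spread between 6 mice. Treatments were compared as log2 ratios of CPM + 5. Other work used Python 3.11.15, NumPy 2.4.6 and SciPy 1.17.1. Coordinates are GENCODE M21 (GRCm38). Genes named were those of the lists and the label, the 10 highest and 10 lowest tested genes of each gate comparison and the 5 highest and 5 lowest ratios of each treatment comparison. Left out of these were mitochondrial, ribosomal, immunoglobulin, receptor, haemoglobin and gate genes, and genes under 20% of their level in another class. Alternatives changed the UMI minimum, the CPM added, the filter, the block, the tool and the doublets, thinned the cells and left out each library in turn.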

Additional observations from a re-analysis of the deposited data

How the results depend on the processing

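Among the alternative fits of named genes in the gate comparisons 2037 kept direction and call, 113 kept direction but no longer passed the threshold, and none changed direction. Fits in which a gene did not pass the filter on low counts are not among these. Against CD4 cells with Eomes or Gzmk, Il2 and Ednrb had 4 fits with a library left out and Csf2 had 5, of 6 possible. Among the alternative values of named ratios between treatments 3939 were classed as unchanged and 145 as moved. Unchanged means that the value lay within the ratio's own counting interval, widened to the reported ratio. A missing bound was taken as no limit. For genes with few UMIs these intervals are wide, so the class says little about how stable their ratios are. The counting intervals are for counts without the added 5. Some reported ratios therefore lie outside their own interval, such as that of Slc15a2 (-2.77 against -7.09 to -3.18). The number of genes that differed from CD4 cells with Eomes or Gzmk was 1054 of 10283 as reported and 1623 of 20084 with no filter on low counts. It was 650 of 8998 with no library block. With a library left out it ran from 535 of 8523 (without 2DG) to 1183 of 10146 (without 2FF). Against Foxp3 cells it was 2382, and 1820 to 2490 with a library left out. Against CD8 cells it was 2848, with 1727 without the block and 2282 to 3044 with a library left out. DESeq2 gave 762, 1672 and 2396. The numbers of genes at a fold of 2 between treatments changed with the UMI minimum and with thinning. As reported they were 292, 373, 314, 449 and 358 over control and 130 (the 2DG combination) and 69 (the 2FF combination) over anti-PD-L1. At least 20 UMIs gave 645, 685, 644, 826, 686, 204 and 153, no minimum gave 1077, 1014, 1077, 1208, 1079, 253 and 201, and thinned cells gave 54, 121, 93, 179, 99, 52 and 10. The number of genes compared changed with these settings too. For 2DG over control it was 6330 as reported, then 8943, 16221 and 2805 in the same order. In every comparison except 2DG over control the balance of higher and lower genes turned under some setting. In anti-PD-L1 over control it turned with at least 20 UMIs (326 higher and 318 lower). In the combinations over control it turned in thinned cells (107 and 72 with 2DG, 55 and 44 with 2FF). With no minimum it turned in 2FF over control (499 and 515). It also turned there in both combinations over anti-PD-L1 (109 and 144 with 2DG, 89 and 112 with 2FF). Without cells resembling simulated doublets the numbers of genes were 239, 374, 277, 441, 354, 115 and 46. With 1 CPM added, the combinations over anti-PD-L1 gave 213 and 146. After the data were seen, removing members with over 5 UMIs of S100a8 and S100a9 gave 265, 381, 312, 450, 351, 137 and 75, and keeping genes seen in at least 20 cells 250, 344, 282, 412, 327, 116 and 52. Removing those members also turned the balance over control in the 2DG combination (231 higher and 219 lower) and the 2FF combination (185 and 166). Over all cells that passed the filters the members' shares were 0.782%, 3.79%, 4.11%, 3.65%, 4.0% and 3.43%. With 1 UMI of Eomes or Gzmk allowed, the shares of T cells were 18.04%, 12.5%, 14.0%, 12.7%, 13.5% and 14.9%. The causes of these differences were not tested beyond the number of genes or cells each setting keeps. Between treatments no paired analysis was possible because each had 1 mouse, while the gate comparisons were paired within mice by the library block. The 71 control cells limit every ratio over control.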

Other observations

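Detection of genes within single member cells was set side by side as a description, since deeper cells show more of every gene. The shares are over the cells of all 6 libraries, which differ in both genes of a pair, so the number of libraries with the same direction is given as well, an addition made after the data were seen. The 843 members with a UMI of Ifng (median 6132 UMIs) more often carried Ccl4 (52.0% against 15.8% of the 849 without, median 5007 UMIs), Nkg7 (89.6% against 51.1%), Cxcr6 (79.5% against 49.6%) and Tbx21 (66.0% against 36.6%), and less often carried Tcf7, a factor of less differentiated T cells (7.36% against 27.3%), each in 6 of 6 libraries. For Ccl4 the libraries ran from 42.9% to 57.6% in cells with Ifng and from 7.14% to 21.3% in cells without. Tnfsf8 (32.6% against 43.6%) had no single direction, being lower in cells with Ifng in 4 libraries and higher in control (66.7% of 15 cells against 42.9% of 56) and 2DG (50% against 31.9%). The 645 members with a UMI of Tnfsf8 (median 6276 against 5182 UMIs) carried Tnfsf11 in 54.9% against 24.1%, Tcf7 in 25.9% against 12.1% and Il21 in 13.5% against 6.11%, and Ccl5 in 38.5% against 65.8%, each in the same direction in 6 of 6 libraries. The 112 members with a UMI of Il13 (median 7644.5 against 5377.5 UMIs) carried Tnfsf11 in 67.9% against 33.5%, Il2ra in 67.9% against 30.8%, Csf2 in 13.4% against 2.47% and Ifng in 65.2% against 48.7%, in 5 of 6 libraries for Csf2 and 6 of 6 for the others, while Il1rl1 was at 6.25% against 7.22%. Only 4 control cells had a UMI of Il13.

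Several of the widest ratios between treatments rested on few cells. Gzma had no UMI in control and 282 UMIs in 10 cells of 2DG, 145 in 16 cells of anti-PD-L1 and 109 in 14 cells of the 2FF combination. In the control library Creb5 had 119 UMIs in 4 cells and Frmd5 167 UMIs in 9 cells. The dendritic chemokine gene Ccl17 had 150 UMIs in 7 members of anti-PD-L1, 138 of them in 1 cell, and Gzmf 128 UMIs in 1 member of 2FF. Setbp1 was spread over more cells, with 15 UMIs in 6 control cells, 579 UMIs in 108 cells of anti-PD-L1 (log2 ratio 3.11) and 619 UMIs in 97 cells of the 2FF combination (3.1). Apol8 had no UMI in control and 62 UMIs in 47 cells of 2DG and 67 in 48 cells of anti-PD-L1.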
